A study of Mus musculus with 2 samples.

Results

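The outermost 20 kb of the distal ends of mouse chromosomes 1 to 19 were examined in 100 bp windows. The distal end of a chromosome was taken as the last base reached by any aligned read of either library (mm9), which gave 3800 windows of 24153300 on the autosomes. No read count entered this choice of windows. Each end was set by a read of these data, however, so the outermost window is never empty in both libraries. The data are 2 libraries from mouse embryonic stem (ES) cells, pluripotent cells of the early embryo, here grown with the cytokine LIF and no feeder layer. In one, labelled H2ABbd, formaldehyde-crosslinked chromatin was sonicated and pulled down with a home-made rabbit antibody to the mouse histone variant H2ABbd (ChIP-seq). In the other, labelled 5mC, methylated DNA was pulled down with a mouse monoclonal antibody to 5-methylcytosine (MeDIP-seq). No input library was used here. Each group has 1 library, so no value has a replicate check, no test between the libraries was made, and the 95% intervals cover counting error only. The deposited file names carry the opposite antibody to the labels, which were not checked by sequence, so every direction below rests on the labels.

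Mouse chromosomes are telocentric: the centromere lies close to one end, and the distal end is the far end of the long arm. Mammalian chromosomes end in telomeres, tandem arrays of a G-rich repeat of 6 bases that holds no CpG, packed in nucleosomes and bound by the shelterin proteins. At a distal end the G-rich strand runs 5′ to 3′ towards the end, which is the direction of the plus strand of the assembly. The DNA just inside the telomere, the subtelomere, is often repetitive and in mouse cells often densely methylated. H2ABbd is a short H2A variant whose nucleosomes wrap less DNA than canonical ones. The mm9 sequence was not used here, so no sequence of an end is printed and no pile-up was matched to telomere repeats, only its reads' spacing and strand being described.

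The H2ABbd-labelled library held 3503839 reads, of which the autosomes had 1346417 distinct positions (chromosome, start and strand), and the 5mC-labelled library held 9266471 reads with 7690224 distinct autosomal positions. An average 20 kb of autosome thus held 11.1 distinct reads of the H2ABbd-labelled library and 63.7 of the 5mC-labelled library. Over all autosomes each distinct position held 2.56 reads (H2ABbd) and 1.15 reads (5mC).

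The distal ends of chromosomes 2, 5, 11 and 18 carried a dense pile-up of reads at the very end, in both libraries. In the H2ABbd-labelled library their last 20 kb held 797, 192, 275 and 816 distinct reads, and in the 5mC-labelled library 879, 243, 333 and 900. Counted with repeats, the H2ABbd-labelled library had 2971, 743, 1152 and 3331 reads there and the 5mC-labelled library 4733, 1272, 1941 and 5709. The other 15 ends held 3 to 145 distinct reads of the H2ABbd-labelled library and 38 to 229 of the 5mC-labelled library, so the 4 ends lie above all others in both. The 4 ends were the only ones of the 19 where the last read of both libraries ended on the same base. Reads this dense make such a match likely, so it is no separate sign of a pile-up. On the other 15 the last reads ended 12 to 3688 bp apart.

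**Figure D1:**
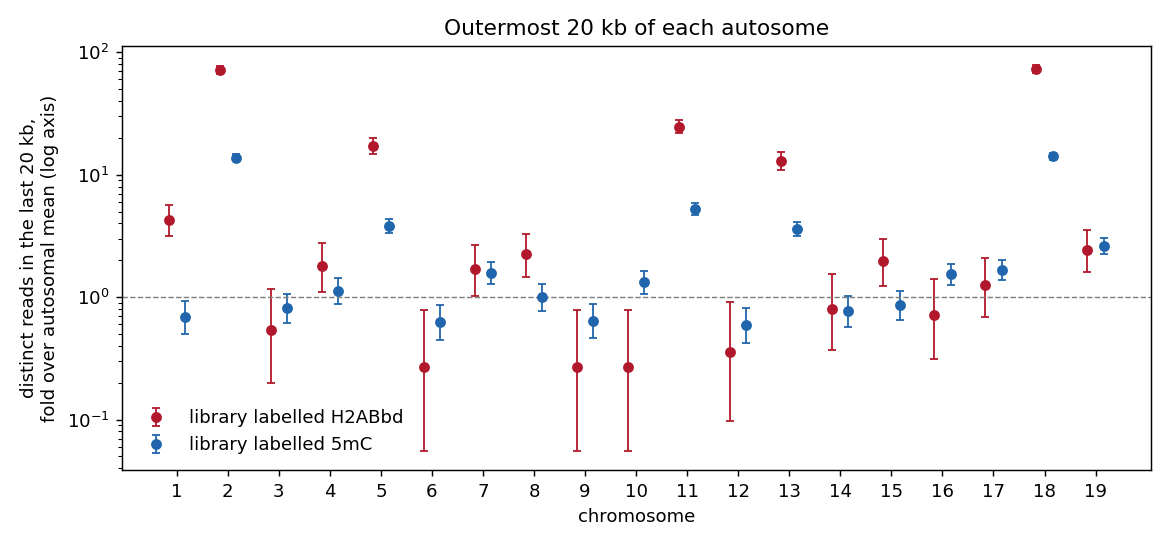
Distinct reads in the last 20 kb of each autosome, as fold over the autosomal mean of the same library (log axis), for the H2ABbd-labelled library (red, left point of each pair) and the 5mC-labelled library (blue). Bars are exact Poisson 95% intervals. Chromosomes 2, 5, 11 and 18 stand highest in both libraries, at 17.2 to 73.2-fold (H2ABbd) and 3.82 to 14.1-fold (5mC). Distinct reads in the pile-ups of these 4 ends lie near a ceiling, so their folds do not compare the libraries.

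A window was called deep at an adjusted Poisson tail of 0.01 over all autosomal windows and at least 10 times the autosomal mean, which took 4 distinct reads in the H2ABbd-labelled library and 6 in the 5mC-labelled library. Of the 3800 windows 33 were called in the H2ABbd-labelled library (0.868%) and 30 in the 5mC-labelled library (0.789%). Over all autosomal windows the called share was 0.0803% (H2ABbd) and 0.0646% (5mC). In both libraries at once 21 windows were called, where the share over all autosomal windows was 0.00939%. The ends of chromosomes 2, 5, 11 and 18 gave 15 of the windows called in each library, and the same 15 were called in both.

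A run of at least 3 called windows reaching to within 500 bp of the end was found on chromosomes 2 and 18 and on no other autosome. On chromosome 2 it took 6 windows and on chromosome 18 it took 5. Counting interior runs too, 3 of the 19 ends held such a run in the H2ABbd-labelled library and 4 of 19 in the 5mC-labelled library. Runs of at least 3 called windows occurred in 0.651% of all 20 kb stretches of the autosomes in the H2ABbd-labelled library and in 0.49% of those in the 5mC-labelled library. On chromosomes 5 and 11 the pile-ups were shorter than 3 windows, and each filled the 2 outermost windows. In 100 bp windows they met the definition when runs of 2 windows were admitted, a change made after their values were seen. With 50 bp windows and runs of 3 both were called in both libraries, and with the 5′ end moved 100 bp chromosome 11 was. Runs of 2 windows and 50 bp windows each also added 1 weaker end, chromosome 13, in the H2ABbd-labelled library alone. In 100 bp windows its run held 12 distinct reads between 100 and 300 bp from the end (107.6-fold, 55.6 to 188.0).

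The 4 terminal pile-ups held far more. In the run of chromosome 18 (mm9, 90771532 to 90772031) the H2ABbd-labelled library had 815 distinct reads (2924-fold over the autosomal mean, 2727 to 3132) and the 5mC-labelled library 838 (526-fold, 491 to 563). On chromosome 2 (181747424 to 181748023) there were 788 of H2ABbd (2356-fold) and 819 of 5mC (429-fold). Chromosome 11 (121843657 to 121843856) had 265 of H2ABbd (2377-fold) and 273 of 5mC (429-fold), and chromosome 5 (152537060 to 152537259) had 185 of H2ABbd (1659-fold) and 183 of 5mC (287-fold). A 100 bp window can hold at most 200 distinct reads, 1 per base and strand. The fullest windows of chromosomes 2 and 18 held 195 and 196 in the H2ABbd-labelled library and 200 and 200 in the 5mC-labelled library. Distinct reads were thus at or near their ceiling there in both libraries, and the folds of these windows are capped.

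All reads have no such ceiling. The deep part of each pile-up was taken as the longest stretch in the last 1 kb where every base was covered by at least 10 reads of both libraries together. It measured 541 bp on chromosome 2 (181747427 to 181747967), 134 bp on chromosome 5 (152537126 to 152537259), 179 bp on chromosome 11 (121843678 to 121843856) and 458 bp on chromosome 18 (90771574 to 90772031). On chromosomes 5, 11 and 18 it ran up to the last base, and on chromosome 2 it stopped 56 bp short of it. Together these 1312 bp held 8141 reads of the H2ABbd-labelled library and 13370 of the 5mC-labelled library. That is 0.237% (H2ABbd, 0.231 to 0.242%) and 0.151% (5mC, 0.148 to 0.153%) of their autosomal reads, and 94.5% (H2ABbd) and 89.2% (5mC) of all their reads in the 19 outermost 20 kb. The inner border was sharp: the next 1 kb inward held 0 to 1 reads of the H2ABbd-labelled library and 3 to 18 of the 5mC-labelled library per end.

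**Figure D2:**
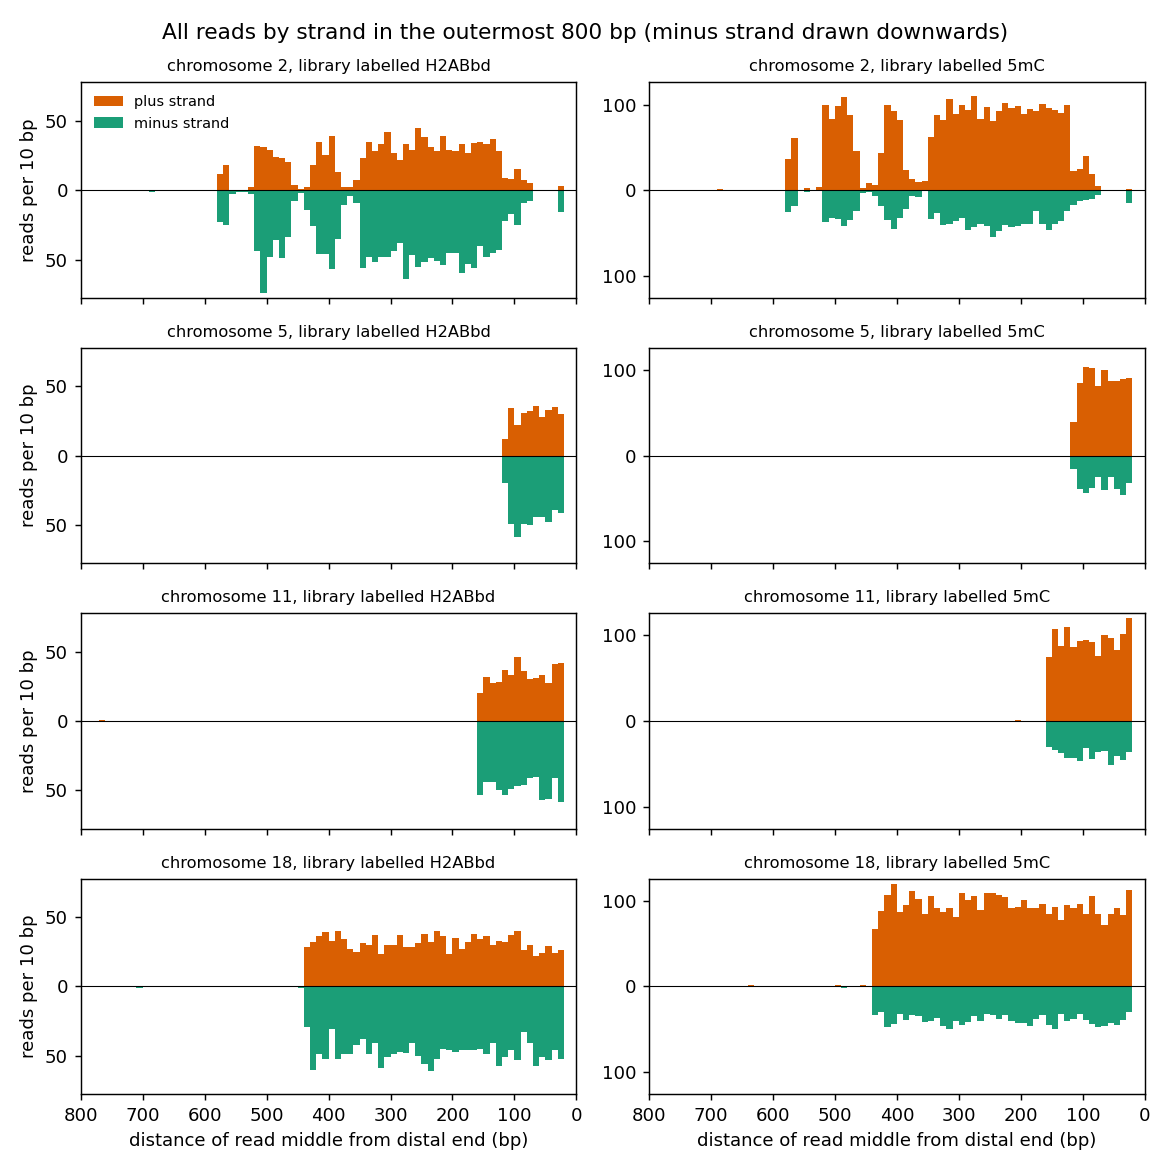
All reads per 10 bp against the distance of the read's middle from the distal end (bp), plus strand upwards and minus strand downwards, for chromosomes 2, 5, 11 and 18 (rows) in the H2ABbd-labelled library (left) and the 5mC-labelled library (right); the vertical scale is shared within a library and differs between them. The pile-ups end abruptly on the inner side, and the minus strand is deeper on the left while the plus strand is deeper on the right.

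The density of reads was nearly the same on chromosomes 5, 11 and 18 although the pile-ups differed in length. Per possible start and strand the H2ABbd-labelled library had 3.95, 4.14 and 3.99 reads there. The 5mC-labelled library had 6.49, 6.81 and 6.76. On chromosome 2 the values were lower, 2.94 (H2ABbd) and 4.65 (5mC), and more starts held no read: plus strand starts were used at 74.4% in the H2ABbd-labelled library and 84.4% in the 5mC-labelled library. On chromosomes 5, 11 and 18 the used shares of the plus strand were 97.8, 92.8 and 96.4% in the H2ABbd-labelled library, and all starts were used in the 5mC-labelled library. No single start carried the pile-ups, since the fullest start and strand held 13 reads in the H2ABbd-labelled library and 25 in the 5mC-labelled library. How reads with several possible positions were placed is not given in the sources used here. Whether the 4 ends share reads in this way was not tested, so they are not given as 4 separate measurements.

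Per autosomal read the pile-ups were 1.57 times denser in the H2ABbd-labelled library than in the 5mC-labelled library (1.53 to 1.61). The ratio was 1.63 on chromosome 2 (1.56 to 1.71), 1.57 on chromosome 5 (1.43 to 1.72), 1.57 on chromosome 11 (1.45 to 1.69) and 1.52 on chromosome 18 (1.46 to 1.59). The 4 intervals overlap, but as the ends may share reads this is no agreement of separate measurements. Counted on distinct positions, where both libraries sit near the ceiling, it was 5.58 (5.25 to 5.94). The pile-ups held 2044 distinct positions of the H2ABbd-labelled library and 2091 of the 5mC-labelled library. With both counts near the ceiling, the ratio on distinct positions mostly follows the library totals and does not compare the density of the libraries. The all-read ratio rested on the library totals: 55 runs inside the autosomes, described below, held 52.1% of the autosomal reads of the H2ABbd-labelled library and 9.47% of those of the 5mC-labelled library, nearly all in 5 runs (51.1% of H2ABbd reads and 8.72% of 5mC reads). With the 55 runs left out of both totals, a step added after the values were seen, the ratio was 2.97 on all reads (2.89 to 3.05) and 5.73 on distinct positions (5.39 to 6.10).

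The libraries leaned to opposite strands at all 4 ends. In the H2ABbd-labelled library the plus strand held 38.0, 39.6, 40.5 and 39.7% of the reads on chromosomes 2, 5, 11 and 18. In the 5mC-labelled library it held 70.3, 71.6, 70.5 and 70.4%. Pooled over the 4 pile-ups the plus strand held 39.2% (H2ABbd, 38.2 to 40.3%) and 70.5% (5mC, 69.7 to 71.3%), with 3194 plus and 4947 minus reads in the H2ABbd-labelled library and 9424 plus and 3946 minus reads in the 5mC-labelled library. Over all autosomes the plus strand held 57.6% (H2ABbd) and 53.6% (5mC) of the reads. Per autosomal read the ratio of the libraries was 0.874 on the plus strand (0.840 to 0.910) and 3.23 on the minus strand (3.10 to 3.37), a difference between strands that does not depend on the totals. Whether the plus strand ratio lies below 1 does: with the 55 interior runs left out it was 1.65 (1.59 to 1.72), and the minus strand ratio 6.11 (5.86 to 6.38). On distinct positions the lean was not visible, at 48.6% (H2ABbd, 46.4 to 50.8%) and 51.2% (5mC, 49.0 to 53.3%). Starts used there were 92.8 to 100% of each strand on chromosomes 5, 11 and 18 and 74.4 to 84.4% on chromosome 2.

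**Figure D3:**
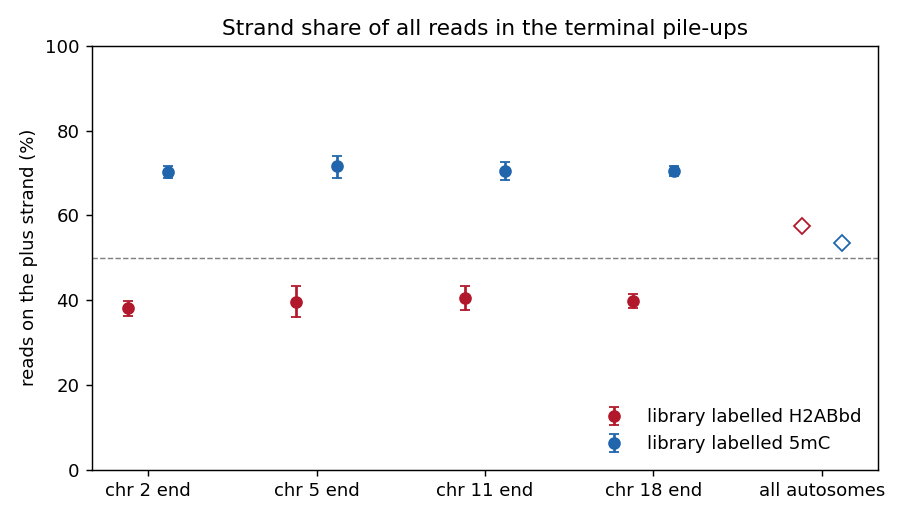
Share of all reads on the plus strand (%) in the terminal pile-ups of chromosomes 2, 5, 11 and 18 with exact Clopper-Pearson 95% intervals, and over all autosomes (open diamonds), for the H2ABbd-labelled library (red, left of each pair) and the 5mC-labelled library (blue). At each end the H2ABbd-labelled library sits at 38.0 to 40.5% and the 5mC-labelled library at 70.3 to 71.6%.

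An opposite lean was not limited to chromosome ends. Elsewhere on the autosomes 55 runs of at least 3 windows called in both libraries held at least 50 reads of each. Their plus strand share had a median of 42.9% in the H2ABbd-labelled library (5 to 95% range 1.76 to 98.7%) and of 51.9% in the 5mC-labelled library (38.7 to 80.3%). In 6 of the 55 runs (10.9%) the intervals of the libraries lay on opposite sides of 50%, and in 5 of these the plus strand was below 50% in the H2ABbd-labelled library and above it in the 5mC-labelled library, as at the ends. The ratio of the libraries in these 55 runs had a median of 2.69 (0.274 to 6.54), above the 1.52 to 1.63 of the terminal pile-ups.

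Plus strand reads of the 5mC-labelled library started at unequal rates along a cycle of 6 bp, most clearly on chromosomes 5, 11 and 18, where every start was used. On chromosome 18 the number of reads per start correlated with itself at r = 0.49, 0.41, 0.42, 0.44 and 0.41 at lags of 6, 12, 18, 24 and 30 bp, while every other lag up to 30 bp lay between -0.23 and 0.08 (417 starts). The mean over multiples of 6 against the mean over other lags was 0.44 against -0.08 on chromosome 18, 0.30 against -0.06 on chromosome 11 (138 starts) and 0.36 against -0.07 on chromosome 5 (93 starts). On chromosome 2, where r was positive at all lags up to 30 bp, it was 0.38 against 0.33, with the highest value at a lag of 6 (0.61). These correlations are across starts within 1 library, which share their reads' source, and are given as descriptions.

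With starts sorted into 6 classes by their position in the 6 bp cycle, the fullest class of the 5mC-labelled library on the plus strand held 24.6% of the reads on chromosome 18 and the emptiest 10.2%. The same shares were 22.9 and 10.7% on chromosome 11, 24.1 and 11.2% on chromosome 5, and 19.4 and 13.3% on chromosome 2. On all 4 ends the emptiest class lay 2 bp distal to the fullest. In the H2ABbd-labelled library the period was weaker on that strand: the mean over multiples of 6 was 0.04 on chromosome 18 against -0.0009 at other lags, 0.06 against -0.01 on chromosome 11 and 0.05 against -0.01 on chromosome 5. It also had fewer reads per start. The minus strand of chromosome 5 in that library had 0.17 against 0.002, from 443 reads. On the minus strand of chromosome 18 the means were 0.02 (H2ABbd) and 0.04 (5mC) at multiples of 6, against -0.01 at other lags in each. Among the 55 deep runs elsewhere the excess of multiples of 6 over other lags for the plus strand of the 5mC-labelled library had a median of -0.04 and reached at most 0.0354, where the runs of chromosomes 18 and 2 had 0.337 and 0.0435.

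**Figure D4:**
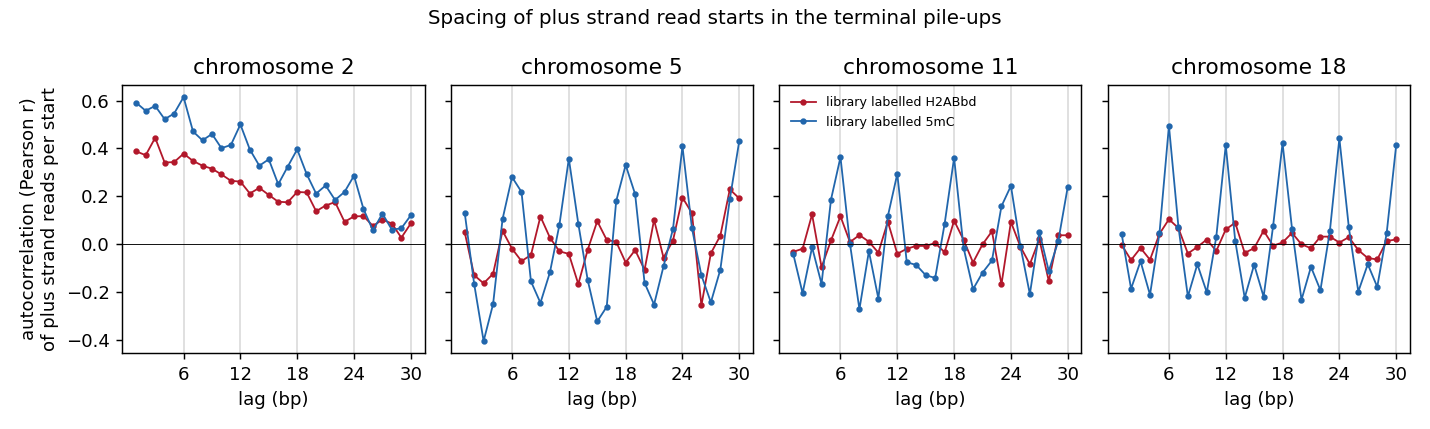
Autocorrelation (Pearson r) of the number of plus strand reads per start against the lag (bp) within the terminal pile-ups of chromosomes 2, 5, 11 and 18, for the H2ABbd-labelled library (red) and the 5mC-labelled library (blue); grey lines mark multiples of 6 bp. The 5mC-labelled library peaks at multiples of 6 bp, from 0.41 to 0.49 on chromosome 18.

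The 15 other ends lay above the autosomal mean when pooled on distinct reads. They had 356 distinct reads of the H2ABbd-labelled library, 2.13 times the autosomal mean (1.91 to 2.36), and 1242 of the 5mC-labelled library, 1.30 times (1.23 to 1.37). Much of this lay on chromosome 13, and without it the folds were 1.35 (H2ABbd, 1.18 to 1.55) and 1.14 (5mC, 1.07 to 1.21). On distinct reads, as in the rest of this paragraph, the median fold over single ends was 1.26 in the H2ABbd-labelled library. There 8 of 15 ends lay above the mean. In the 5mC-labelled library the median was 1.005, likewise with 8 of 15. From 20 to 40 kb inward the same 15 chromosomes stood at 1.34 (H2ABbd, 1.17 to 1.53) and 1.02 (5mC, 0.953 to 1.08), and from 100 to 1000 kb at 0.876 (H2ABbd) and 0.962 (5mC). From 1000 to 5000 kb they stood at 1.38 (H2ABbd) and 1.23 (5mC). The called share in the last 20 kb of these chromosomes was 0.600% (H2ABbd) and 0.500% (5mC), against 0.0667% (H2ABbd) and 0.0333% (5mC) from 20 to 40 kb and 0.0803% (H2ABbd) and 0.0646% (5mC) over all autosomal windows. Chromosome 13 gave 13 of the 18 windows called in the H2ABbd-labelled library and 8 of the 15 called in the 5mC-labelled library. Without it the shares were 0.179% (H2ABbd, 5 of 2800 windows) and 0.250% (5mC, 7 of 2800).

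The ratio of the libraries over these 15 ends depended on how reads were counted and on the library total. On distinct reads the H2ABbd-labelled library was 1.64 times denser (1.45 to 1.84), and on all reads it was 0.815 times as dense (0.729 to 0.911). Each distinct position of the H2ABbd-labelled library held 1.18 reads at these ends and 2.56 over all autosomes, against 1.07 and 1.15 in the 5mC-labelled library. With the 55 interior deep runs left out of the totals, the ratio was 1.68 on distinct reads (1.49 to 1.89) and 1.54 on all reads (1.38 to 1.72), so the value below 1 rested on reads in those runs.

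Chromosome 13 had the highest density among the 15 in both libraries, 145 distinct reads of the H2ABbd-labelled library (13.01-fold, 10.975 to 15.3) and 229 of the 5mC-labelled library (3.60-fold, 3.15 to 4.09). Nearly all of it lay in the outermost 8 kb (120276288 to 120284287), with 142 distinct reads of the H2ABbd-labelled library (31.8-fold, 26.8 to 37.5) and 196 of the 5mC-labelled library (7.69-fold, 6.66 to 8.85). From 8 to 20 kb the counts were 3 of H2ABbd (0.448-fold, 0.0925 to 1.31) and 33 of 5mC (0.864-fold, 0.595 to 1.21). The deepest stretch of 7 called windows in the H2ABbd-labelled library lay 6100 to 7200 bp from the end (120277088 to 120278187), with 70 distinct reads (114-fold, 89.0 to 144), and another of 3 called windows lay between 5300 and 5800 bp (29 distinct reads, 104-fold). In the 5mC-labelled library a run of 3 called windows (120277688 to 120278187, 25 distinct reads, 15.7-fold) overlapped the deeper stretch. This signal was not made of repeats of single positions, with 171 reads on 142 positions (H2ABbd) and 210 reads on 196 (5mC).

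Chromosome 19 was among the 3 highest of the 15 in each library, with a ratio of 0.918 on distinct reads (0.588 to 1.38). Its last 20 kb held 27 distinct reads of the H2ABbd-labelled library (2.42-fold, 1.60 to 3.52) and 168 of the 5mC-labelled library (2.64-fold, 2.25 to 3.07), the second highest of the 15. The outermost 3 kb (61339353 to 61342352) held 12 of H2ABbd (7.18-fold, 3.71 to 12.5) and 103 of 5mC (10.8-fold, 8.80 to 13.1). A run of 4 called windows in the 5mC-labelled library lay 2000 to 2700 bp from the end, with 65 distinct and 97 reads in all (29.2-fold, 22.5 to 37.2). In the H2ABbd-labelled library 2 windows within it were called, with 10 distinct reads.

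Chromosome 1 had the highest ratio of the libraries of all 19 ends on distinct reads, 6.23 (4.05 to 9.60). Its last 20 kb held 48 distinct reads of the H2ABbd-labelled library (4.31-fold, 3.17 to 5.71) and 44 of the 5mC-labelled library (0.691-fold, 0.502 to 0.928). Of the 48, 28 lay 9 to 11 kb from the end (197182297 to 197184296, 25.1-fold, 16.7 to 36.3), where the 5mC-labelled library had 8 (1.26-fold, 0.542 to 2.48). Chromosome 10 had the lowest ratio, 0.204 (0.0412 to 0.617), with 3 distinct reads of the H2ABbd-labelled library in 20 kb and 84 of the 5mC-labelled library (1.32-fold, 1.052 to 1.63).

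**Figure D5:**
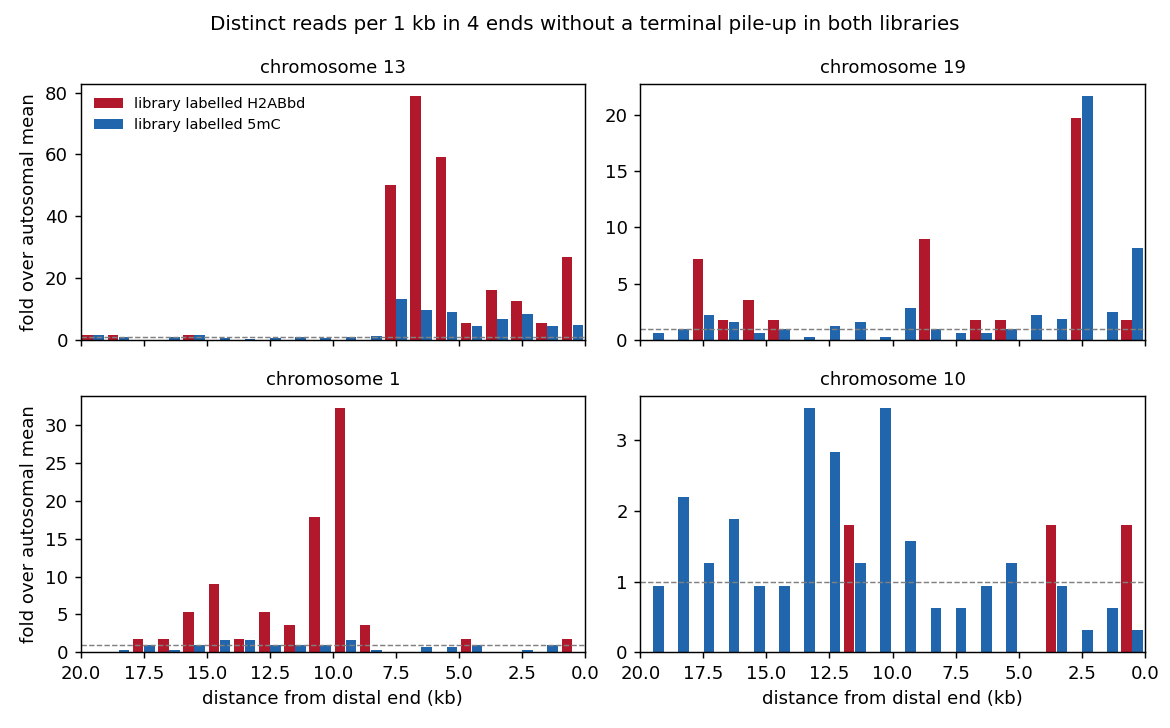
Distinct reads per 1 kb as fold over the autosomal mean of the same library, against distance from the distal end (kb), on chromosomes 13, 19, 1 and 10 for the H2ABbd-labelled library (red, left bar) and the 5mC-labelled library (blue); vertical scales differ between panels. The outermost 8 kb of chromosome 13 are raised in both libraries, and on chromosome 1 the H2ABbd-labelled library alone is raised at 9 to 11 kb.

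The lowest ends were those of chromosomes 6, 9 and 10 in the H2ABbd-labelled library, each with 3 distinct reads where the autosomal mean gives 11.1 (0.269-fold, 0.0555 to 0.786). In the 5mC-labelled library the lowest were chromosomes 12, 6 and 9, with 38, 40 and 41 where the mean gives 63.7 (0.597, 0.628 and 0.644-fold). The third highest among the 15 in that library was chromosome 17, with 14 distinct reads of the H2ABbd-labelled library (1.26-fold, 0.687 to 2.11) and 107 of the 5mC-labelled library (1.68-fold, 1.38 to 2.03). The outermost 1 kb had 0 reads of the H2ABbd-labelled library on 8 of the 15 ends and 0 of the 5mC-labelled library on 1. Each end was set by the last read of either library, on most of these ends a 5mC read. The outermost 1 kb could not be empty in the 5mC-labelled library there, so these counts do not compare the libraries. With 11.1 reads per 20 kb expected at the mean, a lack of a pile-up in the H2ABbd-labelled library says little about lower levels. In simulated libraries of this depth 3 of 100 single windows raised 30-fold and 68 of 100 raised 100-fold were called in the H2ABbd-labelled library, against 78 and 100 of 100 in the 5mC-labelled library. The lowest called counts there were 5 (H2ABbd) and 7 (5mC) reads, 1 above those of the data.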

How the data were processed

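FastQC and Bowtie, with the build mm9, are named in the submitters' processing notes, without versions. How Bowtie was set to treat reads with several positions was not stated in the labels or files. Each deposited line is 1 alignment of 42 bp with its position and strand. The deposited score column is constant and was left aside. Lines with broken separators (8 in the H2ABbd-labelled library, 1 in the 5mC-labelled library) were left out. The members and lists were chosen with earlier results of these data known.

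A distinct position (chromosome, start, strand) was counted once and placed at the read's middle, in 100 bp windows counted inward from each distal end. Folds are against the mean over all autosomal windows of the same library, with unsequenced gaps included. The Poisson tail, adjusted by Benjamini-Hochberg over all windows, was a filter and not a test of conditions. Intervals (95%) are exact Poisson for folds, exact Clopper-Pearson for shares and conditional binomial for ratios. They cover counting error only, since amplified reads carry no molecular identifiers.

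Ends were named if they had a terminal pile-up, were among the 3 highest or 3 lowest of the others in a library, or held an interior run of at least 5 called windows. Chromosome 10's ratio, the stretches within ends and the set of 4 ends were picked after their values were seen. Calling was tested on simulated data. Tools were Python 3.11.15, numpy 2.4.6, scipy 1.17.1, pandas 2.3.3 and matplotlib 3.10.9.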

Additional observations from a re-analysis of the deposited data

How the results depend on the processing

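Under 30 alternatives 122 values were recomputed: 80 stayed close to the reported value, 40 moved and 2 changed direction. Over the 19 ends the reported folds are 11.5 (H2ABbd) and 2.97 (5mC), with a ratio of 3.87. The terminal pile-ups, near the ceiling of distinct reads, held 83.9% (H2ABbd) and 58.1% (5mC) of the distinct reads counted there. These folds and their ratio are therefore largely set by the ceiling and the library totals. Given in that order, on all reads they were 15.9 (H2ABbd) and 10.7 (5mC, ratio 1.48), in the last 10 kb 22.0 and 4.88 (4.50) and in the last 50 kb 5.26 and 1.79 (2.93). With the 5′ end moved 100 bp they were 10.7 and 2.81, and against a mean without the 0.1% most covered windows the H2ABbd fold was 13.04. Without chromosomes 2 and 18 they were 4.34 and 1.68 (2.59). The next alternatives were chosen after seeing the data: without chromosomes 2, 5, 11 and 18 they were 2.13 and 1.30 (1.64), on all reads of those 15 ends 0.983 (0.891 to 1.08) and 1.21 (ratio 0.815, 0.729 to 0.911), and without chromosome 13 too 1.35 and 1.14 (1.19). The ratio thus turned below 1, while the interval of the H2ABbd fold spans 1. With the 55 interior deep runs left out of the means and totals, the 19 ends had 33.2 and 11.8 on all reads (2.80), and the 15 ends had 2.05 and 1.33 on all reads (1.54) and 2.20 and 1.31 on distinct reads (1.68). For the 15 ends the ratio below 1 was therefore not seen without those runs, and the 14 ends were not recomputed in this way. Called windows were 57 in the H2ABbd-labelled library with 50 bp windows. In the 5mC-labelled library they were 18 after thinning to the depth of the other library and 19 at 40 times the mean. Terminal pile-ups were found on 5 (H2ABbd) and 4 (5mC) chromosomes with 50 bp windows, and also with runs of 2 windows, chosen after seeing the data. With the distal edge of a run allowed within 2 kb of the end, chromosome 19 was added in the 5mC-labelled library. This change from 2 to 3 chromosomes was counted among the 80. On distinct positions, likewise added, the plus strand share was 48.6% (H2ABbd) and 51.2% (5mC). No paired analysis was possible because each group has 1 library. The depth of the H2ABbd-labelled library, 11.1 distinct reads per average 20 kb, limits what can be said of single ends.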

Other observations

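The distal end of the X chromosome, which is no autosome, carried a pile-up of the same kind. Its deep part measured 380 bp (166649917 to 166650296) and ran to the last base. It held 1688 reads of the H2ABbd-labelled library and 2717 of the 5mC-labelled library, a ratio of 1.60 per autosomal read (1.51 to 1.70). The plus strand held 40.0% (H2ABbd, 37.7 to 42.4%) and 70.9% (5mC, 69.1 to 72.6%) of them. Plus strand reads of the 5mC-labelled library had r = 0.59 at a lag of 6 bp, but other short lags were as high (0.60 at a lag of 1 bp).

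Inside the autosomes the 5 runs with the lean of the ends had ratios of 1.499 to 5.27, where the ends had 1.52 to 1.63. The highest were 5.27 (chromosome 2, 98502324 to 98503123) and 2.36 (chromosome 4, 118219636 to 118221335). Runs outside the 5 also had ratios near those of the ends, such as 1.59 (chromosome 2, 121348024 to 121348423) and 1.47 (chromosome 3, 30782466 to 30783565). Of the 5, a run on chromosome 2 (57481824 to 57482123) held 859 reads of the H2ABbd-labelled library with 34.3% on the plus strand. It held 1170 of the 5mC-labelled library with 69.1% (ratio 1.89). A run on chromosome 3 (148715366 to 148715965) held 326 (H2ABbd) with 43.3% and 561 (5mC) with 72.7% (1.499), and a run on chromosome 12 (94815366 to 94815665) held 439 (H2ABbd) with 29.8% and 604 (5mC) with 62.4% (1.88). In these 3 runs the excess of multiples of 6 bp over other lags, on the 5mC plus strand, was -0.0253, -0.0633 and -0.0899. The terminal runs of chromosomes 18 and 2 had 0.337 and 0.0435. The sequence of the 3 runs was not used here.

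In RefSeq for GRCm38.p6, a later build than that of the reads, the most distal protein-coding gene is Rfc3 on chromosome 5, a subunit of the clamp loader of DNA replication, and Tcstv3 on chromosome 13. On chromosome 1 it is Cr2, a complement receptor of B cells, and on chromosome 19 Csf2ra, a subunit of the GM-CSF receptor. How far they lie from the last reads was not measured, and they were picked after the values of these ends were seen.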
